A study of Homo sapiens with 6 samples.

Results

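NFE2L2, the gene of the transcription factor NRF2, and 8 of its classic antioxidant target genes (HMOX1, NQO1, GCLM, GCLC, TXNRD1, SRXN1, TXN and PRDX1) were examined in the human multiple myeloma line MM.1S. The 9 genes are a list of symbols of this pathway, with no measured value in the rule, although earlier results of these data were known when the list was drawn up. All 9 are among the 21850 genes of the count table. RNA was sequenced on day 3 after infection with a lentivirus for a scramble hairpin (shNT; wild-type genotype, 3 libraries) or for a hairpin against PRKCN (shPRKCN; PRKCN knockdown genotype, 3 libraries). All 6 libraries come from the same cell line, each group received 1 hairpin construct as far as the labels tell, and no label says whether the 3 libraries of a group were separate cultures, so the p-values measure the spread between these libraries only.

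NRF2 is a short-lived protein. In unstressed cells KEAP1 binds it and hands it to a CUL3 and RBX1 ubiquitin ligase for degradation, and oxidants or electrophiles that modify KEAP1 let NRF2 accumulate. It then pairs with a small MAF protein on antioxidant response elements, where BACH1 competes as a repressor, so that NRF2 activity is set largely at the protein level and the NFE2L2 transcript is only part of it. Its targets make glutathione, keep the thioredoxin system reduced, break down heme and reduce quinones. Plasma cells load their endoplasmic reticulum with antibody and oxidize many disulfide bonds, which makes these systems of interest in myeloma.

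NFE2L2 fell after PRKCN knockdown while 5 of the 8 targets rose. NFE2L2 and HMOX1 changed most, to 62.7% and 159% of the shNT mean, in opposite directions. GCLC, PRDX1, TXNRD1 and NQO1 rose by smaller amounts, SRXN1 and TXN fell slightly, and GCLM did not pass the test. The groups of NQO1 overlapped, and neither NQO1 nor TXN passed under every alternative processing described below. A gene is said to rise or fall here when edgeR's quasi-likelihood test gave a Benjamini-Hochberg adjusted p under 0.05 over the 13971 genes tested, and it is called when its log2 fold change also lay beyond 0.58, the fold limit of the study. Under the first rule 8 of the 9 genes passed, 5 higher and 3 lower. Of all genes tested 54.2% passed, 26.5% higher and 27.8% lower. Under the second rule 2 of the 9 were called, 1 higher (beside 6.15% of all genes) and 1 lower (beside 10.6%), and in either direction 16.7% of all genes were called. The median log2 fold change was 0.24 over the 8 targets and 0.0012 over all genes tested.

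Before the values, matches to the core of the antioxidant response element near the starts of these genes are shown. NRF2 reaches its targets through such elements, but whether it binds at these matches was not tested. RefSeq promoters (GRCh38.p14, 250 bases before to 50 after a start) were at hand for 7 of the 9 genes, with HMOX1 and PRDX1 missing, and gave 9 windows because NFE2L2 and TXNRD1 have a pair of starts each. The element core TGACNNNGC was searched on both strands. It occurred in 3 of the 9 windows (33.3%), and in 13.3% of the 35116 promoter windows of all genes. The matches lay in GCLM and in both starts of TXNRD1, so TXNRD1 is counted at each start. The shares were not tested against each other. The matches are printed on the strand of the gene with 10 bases on either side, the matched bases in capitals. Each position given is that of the first capital base, counted from the start concerned. A match that ends in GTCA lies on the opposite strand.
GCLM, chr1:93909446-93909474, minus strand, match from position −34 to the gene start: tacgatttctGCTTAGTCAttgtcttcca
TXNRD1, first start, chr12:104215670-104215698, plus strand, match from position −99: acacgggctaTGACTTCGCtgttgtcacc
TXNRD1, first start, chr12:104215761-104215789, plus strand, match from position −8: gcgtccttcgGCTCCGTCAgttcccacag
TXNRD1, second start, chr12:104286920-104286948, plus strand, match from position −102: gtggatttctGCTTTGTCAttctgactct
None of the 4 matches contains TGAGTCA or its reverse complement, the 7-base AP-1 motif that can overlap this core. That motif was in 0 of the 9 windows and in 4.95% of all promoter windows. The windows of NFE2L2, NQO1, GCLC, SRXN1 and TXN hold no match, which says only that these letters are absent from these windows.

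The knockdown was checked first. PRKCN is listed as PRKD3, and its level was 1272, 1298 and 1216 CPM (counts scaled to a common library size by the TMM method) in the shNT libraries and 535, 491 and 527 CPM in the shPRKCN libraries, 41.0% of the shNT mean. Library totals ran from 35625564 to 37730003 counts. All 8 plasma cell markers were expressed in every library, with summed levels of 5708 to 5838 FPKM (counts per gene length and library total) in shNT and 5266 to 5492 FPKM in shPRKCN libraries, and XBP1, SLAMF7 and TNFRSF17 were called lower. Of 15 markers of other cell types 11 were listed, and their summed level was 14.4 to 17.6 FPKM in shNT and 23.5 to 25.99 FPKM in shPRKCN libraries. Within that list CD3E was called higher (7.93 to 21.3 FPKM, group means), PECAM1 (2.87 to 1.23 FPKM) and HBB (5.01 to 1.61 FPKM) were called lower, and CD3D, CD14, LYZ, CSF1R, COL1A1 and VWF had at most 9 counts in any library. What part these markers have in the results below was not tested.

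NFE2L2 itself is on chromosome 2 (177230303 to 177264727, minus strand, GRCh38.p14). Its level was 43.9, 41.8 and 46.9 CPM in the shNT libraries and 28.6, 25.3 and 29.3 CPM in the shPRKCN libraries. Every shPRKCN library lay below every shNT library, with a gap of 12.5 CPM between the groups that exceeds the range within either. The mean was 44.2 ± 2.55 against 27.7 ± 2.17 CPM (SD, n = 3), which is a log2 fold change of −0.67 (SE, the standard error, 0.059, 95% interval −0.79 to −0.56, adjusted p = 5.3e-16 by edgeR). Dropping any single library gave values between −0.71 and −0.61. The groups did not overlap for 8 of the 9 genes, 5 of them higher and 3 lower, and for these a 2-sided exact permutation test over the libraries gives p = 0.1, the smallest that 3 against 3 allows. Groups without overlap occurred in 58.8% of all genes tested, 29% higher and 29.8% lower. In bulk RNA, fewer cells that express a gene and less RNA per cell cannot be told apart.

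**Figure D1:**
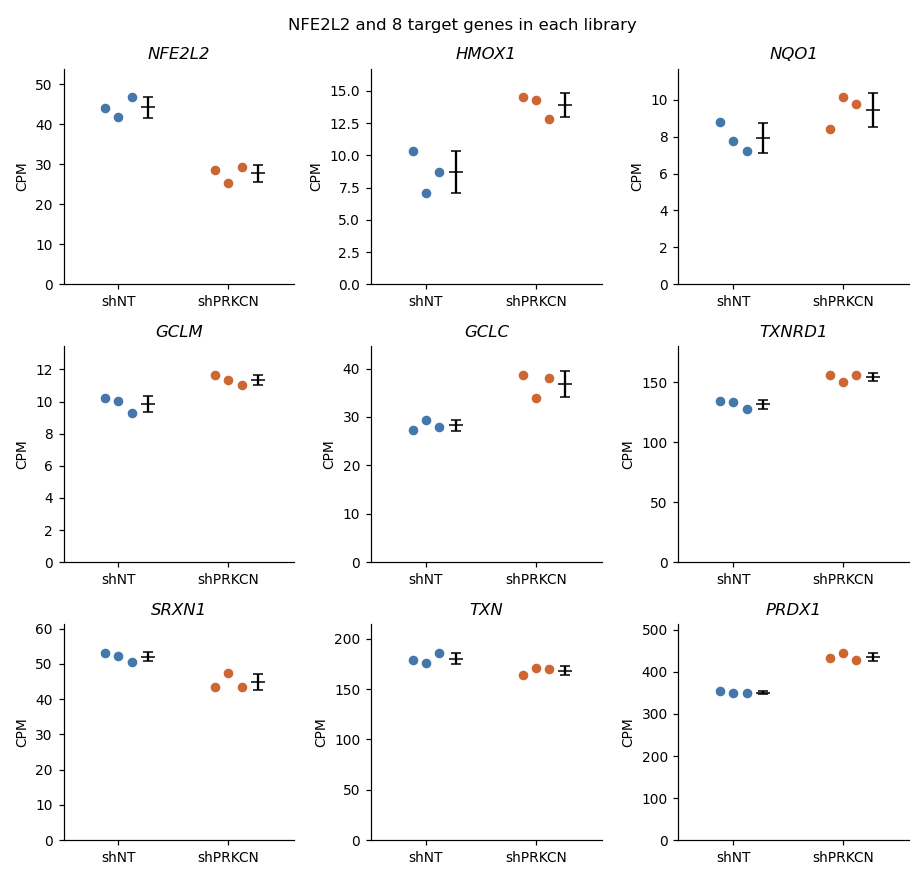
Level of each of the 9 genes in CPM (vertical axes, from 0) in the 3 shNT and 3 shPRKCN libraries (points), with the group mean and SD (black). NFE2L2, SRXN1 and TXN lie lower in every shPRKCN library, HMOX1, GCLM, GCLC, TXNRD1 and PRDX1 lie higher, and the NQO1 groups overlap.

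HMOX1 encodes heme oxygenase 1, the inducible enzyme that opens heme to biliverdin, carbon monoxide and iron, and lies on chromosome 22 (35381096 to 35394207). Its level was 10.3, 7.10 and 8.71 CPM in the shNT libraries and 14.5, 14.3 and 12.8 CPM in the shPRKCN libraries. The groups did not overlap, although the shNT libraries differed among themselves more than for any other of the 9 genes (coefficient of variation 18.4%). The log2 fold change was 0.67 (SE 0.104, 95% interval 0.47 to 0.88, adjusted p = 7.1e-08, same test). The second shNT library was the lowest of all, and without it the log2 fold change was 0.55 (adjusted p = 7.7e-06), inside the fold limit, so that HMOX1 passed the test but was no longer called.

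NQO1 encodes a quinone reductase that reduces quinones without releasing semiquinone radicals and is a common reporter of NRF2 activity. It lies on chromosome 16 (69709401 to 69726560). Its level was 8.81, 7.75 and 7.24 CPM in the shNT libraries and 8.44, 10.2 and 9.77 CPM in the shPRKCN libraries. The first shPRKCN library lay below the first shNT library, so this was the single gene of the 9 whose groups overlapped (exact permutation test, p = 0.2). The log2 fold change of 0.25 (SE 0.111) had an adjusted p of 0.047 by edgeR's quasi-likelihood method. That p rose to 0.098, 0.19, 0.17 and 0.11 without shNT 2, shNT 3, shPRKCN 2 or shPRKCN 3, with log2 fold changes of 0.24, 0.19, 0.20 and 0.24, and it was 0.069 with DESeq2.

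Both subunits of glutamate-cysteine ligase, the rate-limiting enzyme of glutathione synthesis, were measured. GCLC, the catalytic subunit, lies on chromosome 6 (53497341 to 53545101) and had 27.4, 29.4 and 27.9 CPM in the shNT libraries against 38.7, 33.8 and 38.1 CPM in the shPRKCN libraries. Its groups stood 4.41 CPM apart, and the log2 fold change was 0.39 (SE 0.060, adjusted p = 8.7e-08). Dropping any single library gave 0.35 to 0.44. GCLM, the modifier subunit that raises the affinity of the enzyme for glutamate, lies on chromosome 1 (93885199 to 93909430). It had 10.2, 10.01 and 9.29 CPM in the shNT libraries and 11.7, 11.3 and 11.1 CPM in the shPRKCN libraries. Every shPRKCN library was the higher, but the log2 fold change of 0.21 (SE 0.099, 95% interval 0.01 to 0.40) had an adjusted p of 0.069 and did not pass. Scaling by library size alone gave 0.23 with an adjusted p of 0.046. Counted per length, GCLC exceeded GCLM in every library, by 4.81 ± 0.285 times in shNT and 5.43 ± 0.401 times in shPRKCN cells (FPKM ratio, SD, n = 3), and the ranges of these ratios overlapped (exact permutation p = 0.2, adjusted 0.24 over 6 ratios).

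In the thioredoxin system, TXNRD1 is the selenoprotein reductase that passes electrons from NADPH to thioredoxin (TXN), which in turn reduces peroxiredoxin 1 (PRDX1), and SRXN1 repairs peroxiredoxins that peroxide has overoxidized. The 4 genes did not move together. PRDX1 on chromosome 1 (45511051 to 45522890) had 355, 349 and 349 CPM in the shNT libraries and 432, 446 and 428 CPM in the shPRKCN libraries. The groups stood 73.7 CPM apart, many times the shNT spread of 3.11 CPM (SD), and the log2 fold change was 0.31 (SE 0.033, adjusted p = 1.3e-12). TXNRD1 on chromosome 12 (104215779 to 104350307) had 134, 133 and 127 CPM in the shNT libraries and 156, 150 and 156 CPM in the shPRKCN libraries, with no overlap. Its log2 fold change was 0.23 (SE 0.038, adjusted p = 5.6e-07).

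SRXN1 on chromosome 20 (646615 to 653200) went the other way, from 53.2, 52.3 and 50.6 CPM in the shNT libraries to 43.5, 47.3 and 43.5 CPM in the shPRKCN libraries. The groups did not overlap, and the log2 fold change was −0.22 (SE 0.051, adjusted p = 0.00023). TXN on chromosome 9 (110243810 to 110256507) had 178, 175 and 186 CPM in the shNT libraries and 164, 171 and 170 CPM in the shPRKCN libraries. Its groups stood 4.04 CPM apart, and its log2 fold change of −0.10 (SE 0.037, adjusted p = 0.024) was the smallest of the 9. The adjusted p of TXN rose to 0.13, 0.16 and 0.059 without shNT 3, shPRKCN 1 or shPRKCN 3, with log2 fold changes of −0.071, −0.074 and −0.098.

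**Figure D2:**
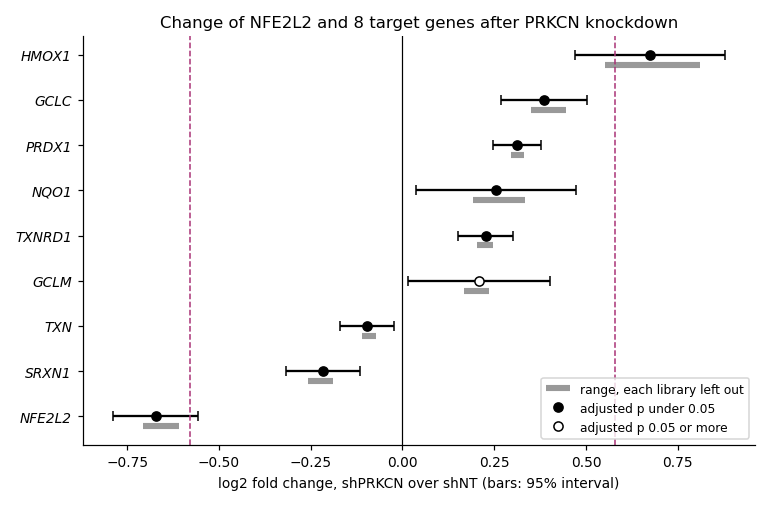
The log2 fold change of each gene, shPRKCN over shNT (horizontal axis), with its 95% interval (black bars) and its range with each library left out in turn (grey); dashed lines mark the fold limit of 0.58 in either direction. NFE2L2 at −0.67 and HMOX1 at 0.67 lie beyond it, and GCLM (open point) did not reach an adjusted p of 0.05.

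Levels of partners were compared as 6 per-length ratios of FPKM values, each with a 2-sided exact permutation test, adjusted over the 6.  PRDX1 stood at 13.3 ± 0.275 times SRXN1 in shNT and at 19.3 ± 0.554 times SRXN1 in shPRKCN cells (SD, n = 3), and the 3 libraries of each group did not overlap (exact permutation p = 0.1, adjusted 0.15). PRDX1 was 1.12 ± 0.037 times TXN in shNT and 1.49 ± 0.038 times TXN in shPRKCN cells, with no overlap either. TXN stood at 7.92 ± 0.475 times TXNRD1 in shNT and at 6.33 ± 0.258 times TXNRD1 in shPRKCN cells. In the exact permutation test, 3 libraries against 3 cannot go below p = 0.1.

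Per length, the 9 genes span more than 2 orders of magnitude. PRDX1 was the most abundant at 273 ± 2.04 FPKM in shNT cells, followed by TXN (243), TXNRD1 (30.7), SRXN1 (20.4), NFE2L2 (13.8), GCLC (7.34), HMOX1 (5.56), NQO1 (3.12) and GCLM (1.53 FPKM). In the shNT libraries no gene overlapped its neighbour in this order. In shPRKCN cells NFE2L2 stood in the seventh place instead of the fifth, behind GCLC and HMOX1, at 8.78 ± 0.776 FPKM (SD, n = 3) against 9.72 for GCLC and 8.99 for HMOX1, and here GCLC overlapped HMOX1 and HMOX1 overlapped NFE2L2. Among the genes tested, PRDX1 and TXN lay at the 98.7th and 98.6th percentile of FPKM in shNT cells, while GCLM lay at the 30.7th.

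**Figure D3:**
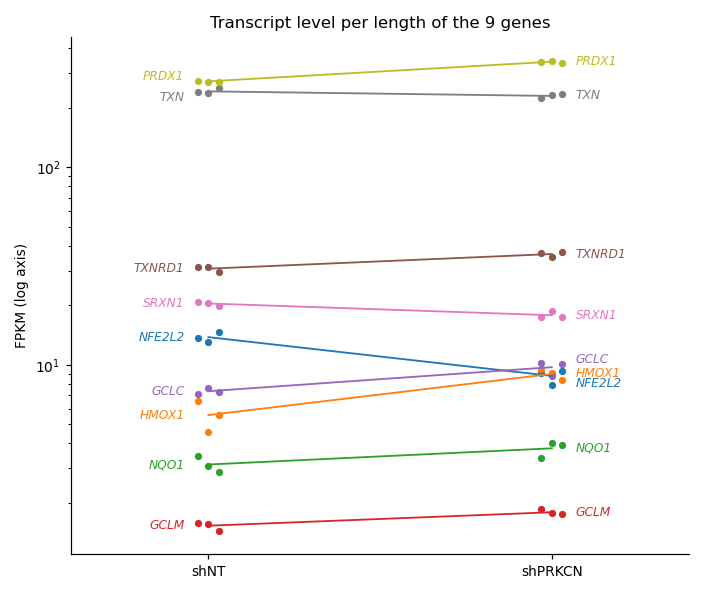
FPKM of the 9 genes on a log axis in the shNT and shPRKCN libraries (points), with lines joining the group means. The line of NFE2L2 crosses those of GCLC and HMOX1, from 13.8 FPKM above both to 8.78 FPKM, where the 3 genes stand close together.

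Of the 9 genes, 3 overlap another listed gene on GRCh38.p14, and whether the counting used strand is not given in the sources used here. PRDX1 shares 2332 bases with MMACHC, which had 408 to 503 counts per library and a log2 fold change of −0.16 (adjusted p = 0.14), opposite in sign to PRDX1. EID3 inside TXNRD1 had at most 3 counts and LOC107985423 beside SRXN1 at most 10.

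Regulators of NRF2, related factors and the factors that share its sites were taken as a list of 13 genes, all of them tested. Of these 4 rose, 5 fell and 4 did not pass, beside 26.5% of all genes that rose and 27.8% that fell. BACH1, the heme-sensing repressor that competes with NRF2 at HMOX1, fell with NFE2L2. It had 41.0, 44.5 and 37.3 CPM in the shNT libraries and 28.7, 26.2 and 24.8 CPM in the shPRKCN libraries, 65.0% of the shNT mean. The groups did not overlap, and its log2 fold change was −0.62 (SE 0.062, adjusted p = 6.4e-14), or −0.55 without shNT 2 and −0.57 without shPRKCN 3, both inside the fold limit, as was its value of −0.51 with limma on log2(FPKM + 1). The ratio of NFE2L2 to BACH1 was 2.00 ± 0.292 in shNT and 1.92 ± 0.214 in shPRKCN cells per length (exact permutation p = 0.7, adjusted 0.7). The related repressor BACH2, a B cell factor, had a log2 fold change of 0.05 (95% interval −0.07 to 0.18).

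Of the small MAF proteins that bind DNA together with NRF2 or BACH1, MAFG rose and MAFF fell. MAFG was at 54.8, 57.1 and 59.3 CPM in the shNT libraries and 77.8, 77.0 and 73.6 CPM in the shPRKCN libraries, a log2 fold change of 0.42 (SE 0.047, adjusted p = 6.3e-12). MAFF was at 17.8, 14.9 and 15.8 CPM in the shNT libraries and 8.62, 8.63 and 9.21 CPM in the shPRKCN libraries, a log2 fold change of −0.87 (SE 0.094, adjusted p = 1.7e-12). Neither pair of groups overlapped. MAFK, at −0.12 on the log2 scale (adjusted p = 0.20), did not pass.

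SQSTM1, the autophagy receptor p62 that can pull KEAP1 away from NRF2, rose from 209 ± 4.85 to 252 ± 11.4 CPM (SD, n = 3), a log2 fold change of 0.27 (adjusted p = 2.4e-09). KEAP1 was higher by 0.10 on the log2 scale (adjusted p = 0.039), but its p was 0.12, 0.061, 0.11 and 0.13 without shNT 1, shNT 2, shPRKCN 2 or shPRKCN 3 (log2 fold changes of 0.093, 0.11, 0.086 and 0.090). NFE2L2 stood at 0.516 ± 0.027 times KEAP1 per length in shNT and at 0.302 ± 0.031 times in shPRKCN cells. RBX1 fell by 0.21 on the log2 scale, GSK3B, a kinase that marks NRF2 for degradation through BTRC, rose by 0.16, and CUL3 (−0.03) and BTRC (−0.03) did not pass. The related factors NFE2L1 and NFE2L3 fell by 0.15 and 0.18.

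**Figure D4:**
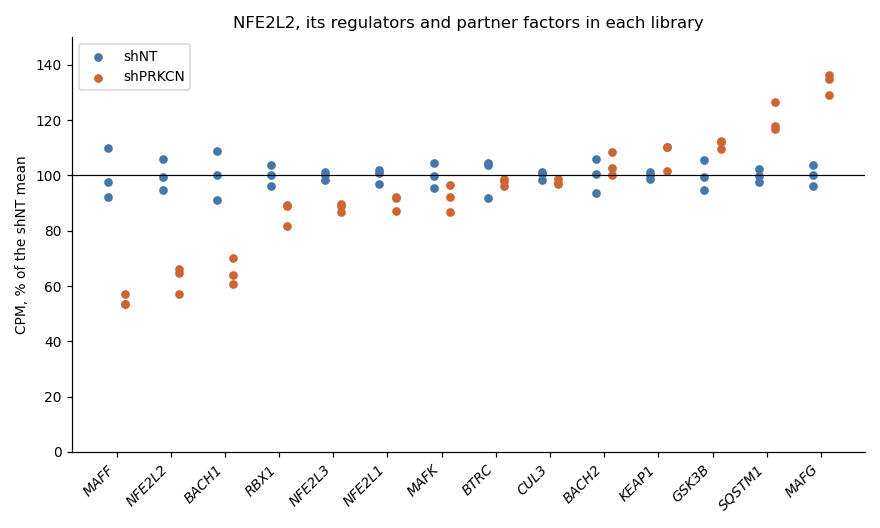
CPM of NFE2L2 and the 13 regulators and partner factors in each library, as a percentage of that gene's shNT mean (vertical axis, from 0), sorted by log2 fold change. In the shPRKCN libraries MAFF (53.5% to 57.1% of the shNT mean), NFE2L2 (57.1% to 66.3%) and BACH1 (60.7% to 70.2%) lie lowest. MAFG and SQSTM1 lie highest.

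Around GCLC and GCLM, 12 tested genes supply or use glutathione, of which 4 rose and 5 fell. Over all genes tested 26.5% rose and 27.8% fell, and 6.15% were called higher and 10.6% lower. GSR, glutathione reductase and itself a known NRF2 target, rose most in this list, from 95.5, 83.5 and 83.1 CPM in the shNT libraries to 146, 142 and 145 CPM in the shPRKCN libraries. The groups are well apart, and its log2 fold change was 0.72 (SE 0.043, adjusted p = 5.8e-24). SLC7A11, the cystine carrier and also an NRF2 target, went the other way, from 7.73, 9.38 and 7.77 CPM to 3.96, 3.28 and 2.61 CPM. That is a log2 fold change of −1.34 (SE 0.141, adjusted p = 7.9e-13). Its partner chain SLC3A2 fell by 0.49 on the log2 scale.

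CHAC1 and CHAC2, enzymes that degrade glutathione, fell as well, with log2 fold changes of −3.02 (6.22 to 0.765 CPM, group means) and −0.60. CHAC2 was at −0.55 without shNT 3 and at −0.55 without shPRKCN 3, inside the fold limit. SLC7A11, CHAC1 and SESN2 are also known targets of ATF4, the factor of the amino acid response, whose part here was not tested. Of the genes that use glutathione against peroxides, GPX1 rose by 0.22 and GPX4, which clears lipid peroxides, fell by 0.20 on the log2 scale. SLC3A2, GPX1 and GPX4, like the genes named for the heme list, were singled out after their values were seen.

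Of 15 further genes of the thioredoxin and peroxiredoxin system 3 rose and 7 fell, beside 26.5% and 27.8% of all genes. Those of the 15 past the fold limit were all lower, where 6.15% of all genes were called higher and 10.6% lower. The called genes were SESN2 (−1.08, from 30.8 ± 1.24 to 14.6 ± 0.471 CPM), SESN3 (−0.79) and MSRB1 (−0.73), 2 sestrins and a methionine sulfoxide reductase. TXNRD2, the mitochondrial thioredoxin reductase, rose by 0.39 on the log2 scale and PRDX6 by 0.23, the same direction as TXNRD1 and PRDX1. PRDX2 (−0.16), PRDX3 (−0.20) and TXNIP (−0.25), the inhibitor of thioredoxin, fell. These 5 genes were singled out after their values were seen.

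The genes of heme and iron handling beside HMOX1 gave 5 rises and 2 falls among 10 tested, against 26.5% and 27.8% of all genes. Their median log2 fold change was 0.10. Those that rose were the constitutive heme oxygenase HMOX2 (0.40, from 43.6 ± 2.56 to 57.5 ± 3.91 CPM), biliverdin reductase BLVRA (0.48), the heme carrier SLC48A1 (0.51), ferrochelatase FECH, which makes heme (0.32), and ferritin light chain FTL (0.10 on the log2 scale). FTL did not pass without shNT 1 (0.067, adjusted p = 0.16). Ferritin heavy chain FTH1 (−0.34) and the transferrin receptor TFRC (−0.32) fell. None of these 10 genes passed the fold limit, and 16.7% of all genes tested were called in either direction.

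Detoxification enzymes and exporters gave 3 rises and 4 falls among 18 tested genes, beside 26.5% and 27.8% of all genes. GSTP1, a glutathione transferase, rose by 0.29 on the log2 scale from 371 to 454 CPM (group means), and the aldo-keto reductases AKR1B1 (0.33) and AKR1A1 (0.34) rose too. MGST3, a microsomal glutathione transferase, was called lower at −0.64, and so was the carbonyl reductase CBR3 at −1.09, which had at most 2.46 CPM in any library. GSTO1 (−0.35), also a glutathione transferase, and EPHX1 (−0.23) fell too. The median log2 fold change of the 18 was −0.12. GSTP1, AKR1B1, AKR1A1, GSTO1 and EPHX1 were singled out after their values were seen.

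Of the 7 enzymes that supply NADPH, 0 rose by edgeR or by DESeq2, and 2 fell by edgeR. PGD fell by 0.44 and IDH1 by 0.37 on the log2 scale, both singled out after their values were seen. By edgeR 26.5% of all genes tested rose and 27.8% fell. At an unadjusted p under 0.05 TKT was higher too (0.07, adjusted p = 0.076), and it passed without shNT 3 or without shPRKCN 1. Of 3 superoxide and peroxide removing enzymes CAT (0.16) and SOD2 (0.15) rose and SOD1 (0.04) did not pass. SOD2 missed the threshold without shNT 1, shPRKCN 1 or shPRKCN 3 (adjusted p = 0.070, 0.057 and 0.059), and with limma on log2(FPKM + 1) or log2(FPKM + 0.1) (adjusted p = 0.11 and 0.13), which left 1 rise.

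Over the 78 tested genes of these 7 lists 21 rose and 25 fell, 1 was called higher (GSR) and 10 lower, and over all genes tested 26.5% rose, 27.8% fell, 6.15% were called higher and 10.6% lower. The lists held 88 genes, of which 82 were in the count table and 78 were tested. GPX2, GPX3, SOD3, AKR1B10, AKR1C1 and ABCC3 were absent from the count table. GPX8, AKR1C2, GSTM3 and ALDH3A1 had too few counts to test. The median log2 fold change of the 78 was −0.03. GSR was the only gene among them past the fold limit in the direction of HMOX1. The 10 called lower were BACH1, MAFF, SLC7A11, CHAC1, CHAC2, SESN2, SESN3, MSRB1, MGST3 and CBR3.

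By the mean absolute difference of centred log2 CPM over the 6 libraries, the genes most like NFE2L2 among 8862 with a mean of at least 10 CPM were RLF (0.029), RFC4 (0.034) and POU2F1 (0.039), with log2 fold changes of −0.62, −0.61 and −0.60. Those most like HMOX1 were CPS1 (0.077), TMEM229B (0.089) and PLAGL2 (0.093), with log2 fold changes of 0.65, 0.58 and 0.76. Since the 6 libraries form 2 groups, this likeness mostly reflects the size of the difference between them.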

How the data were processed

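Libraries were prepared from total RNA, and the submitters' processing notes list FastQC, HISAT2, StringTie and the build GRCh38.p14, without versions. The authors deposited raw counts per gene and FPKM values. All 109999 FPKM values above 0 follow, within 0.1%, from the counts, the library total and 1 length per gene. The annotation is not given, nor whether counting used strand, in the sources used here.

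In R 4.3.3, edgeR 4.0.16 scaled the counts (TMM), kept 13971 genes (filterByExpr) and gave quasi-likelihood tests with Benjamini-Hochberg adjustment over all of them. The standard error is the log2 fold change divided by the square root of F, and 95% intervals are normal approximations from it. The steps were tested on simulated data. Alternatives were DESeq2 1.42.0, 3 other scalings, other count filters, leaving out single libraries, a block for the replicate number, no fold limit, and limma 3.58.1 on FPKM values with a pseudocount of 1 or 0.1 before taking log2.

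The 9 genes and all lists were chosen with earlier results of these data known. By rule the text names the 9 genes, PRKD3, every regulator and every listed gene past both limits. For NFE2L2 and the gene that changed most it also names the 3 genes most alike. Other genes of the related lists were named after their values were seen. By chi-square over genes, no library repeated another (3.38 to 4.80 per degree of freedom within groups, 63.8 to 70.2 across them). Sequences are RefSeq's, read with Python 3.11.15.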

Additional observations from a re-analysis of the deposited data

How the results depend on the processing

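NFE2L2, HMOX1, GCLC, TXNRD1, SRXN1 and PRDX1 kept their direction and an adjusted p under 0.05 under all 16 alternatives that gave them a value. NQO1 missed 0.05 with DESeq2 (log2 fold change 0.26), without a filter (0.26), with the replicate block (0.25) and when shNT 2, shNT 3, shPRKCN 2 or shPRKCN 3 was left out (range over all 6 libraries 0.19 to 0.33). TXN missed it with library-size scaling (−0.077), with limma on log2(FPKM + 1) and log2(FPKM + 0.1) (both −0.076) and without shNT 3, shPRKCN 1 or shPRKCN 3 (range −0.11 to −0.071). GCLM passed with library-size scaling (0.23) and ran from 0.17 to 0.23 with single libraries left out. Of the 9 genes, 1 was called higher, or 0 without shNT 2, and dropping the fold limit gave 5 higher and 3 lower. By limma on log2(FPKM + 1) 1 glutathione gene was called lower instead of 3. BTRC, which did not pass, changed sign without shNT 2 (range with single libraries left out −0.093 to 0.0040). The cause was not tested.

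Over all genes, 859 were called higher and 1475 lower. These counts became 317 and 651 with limma on log2(FPKM + 1), which compresses low values, 310 and 635 with the same limma fit after genes under an FPKM of 1 in more than 3 libraries were dropped, and 3700 and 3877 without the fold limit. No scaling moved the median of all genes beyond 0.021 on the log2 scale. Same-numbered libraries did not deviate together (correlations −0.042, −0.013 and 0.0038), so no pairing was seen. With so few libraries this cannot settle the design, and the labels give only a replicate number. The replicate block gave 854 higher and 1463 lower genes, and KEAP1 (0.10, adjusted p = 0.062) missed 0.05 under it. On the log2(FPKM + 1) scale SLC7A11 fell by 0.46, CHAC1 by 0.83, CHAC2 by 0.51, CBR3 by 0.57 and BACH1 by 0.51, each less than its count-based value, and all but CHAC1 were inside the fold limit.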
